A study of Bos taurus with 56 samples.

Results

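Genes of fatty acid oxidation and of branched-chain amino acid breakdown were followed across the bovine oviduct epithelium. The set was a list of 40 gene symbols, 22 of fatty acid oxidation and 18 of branched-chain amino acid breakdown and related steps, and all 40 were found by symbol among the 31903 genes of the count table. The list was chosen with earlier results of these data known. Shares and medians of the members set beside all genes are therefore no independent test of these pathways. The study asked how lactation and the position relative to the corpus luteum (CL, the progesterone-secreting body that forms on the ovary that has ovulated) affect the epithelium in which the early embryo lives. RNA was sequenced from 14 Holstein animals of 3 metabolic groups: 5 nulliparous heifers, 5 primiparous cows that were dried off at calving and never milked (non-lactating), and 4 primiparous cows that were milked (lactating). Both groups of cows were about 60 days post-partum. All animals, heifers included, had received an intra-vaginal progesterone device, a prostaglandin analogue and a GnRH analogue to synchronize estrus, were not inseminated, and were slaughtered on Day 3 after estrus. From each animal the cells scraped from the ampulla (the wide region near the ovary) and from the isthmus (the narrow region next to the uterus) were taken on the side of the CL (ipsilateral) and on the opposite side (contralateral), giving 12 conditions and 56 libraries of 1 animal each.

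Long-chain fatty acids are activated to acyl-CoA, carried into the mitochondrion by the carnitine shuttle, and shortened by repeated rounds of dehydrogenation, hydration, a second dehydrogenation and thiolysis, with electrons passed on through the electron transfer flavoprotein. Leucine, isoleucine and valine are first transaminated and decarboxylated, and their acyl-CoA products are then oxidized by enzymes that resemble those of beta-oxidation, so that both routes end in acetyl-CoA and, for odd-chain and branched substrates, in propionyl-CoA and succinyl-CoA. The receptor PPARA and the coactivator PPARGC1A are known regulators of many of these genes in liver and muscle. The oviduct epithelium consists of ciliated and secretory cells, and its secretory cells supply the fluid around the early embryo.

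The libraries held 1901454 to 6836850 counts on genes (median 4931502.5), and levels are given as CPM, the count scaled to the size of the library after TMM, a correction for differences in library composition. Levels per transcript length were not computed, so levels are compared between libraries and not between genes. Animals are named by letters within their group, A to E in heifers and in non-lactating cows and A to D in lactating cows. In the ipsilateral ampulla the library of heifer B resembled non-lactating cow B more than its own animal (r = 0.63 against 0.31 over 200 genes). The library of non-lactating cow B resembled heifer B more (r = 0.57 against 0.47). Those placed here as non-lactating C and lactating B carry each other's animal number. Each of them resembled most the animal it was placed with (r = 0.81 and 0.92). All 4 stayed in the group that their column name gives. Each edgeR test that uses the ipsilateral ampulla was also computed with the mismatched libraries left out. Ranges, counts of animals and medians within animals include them. Markers of epithelial cells (summed 858 to 1895 CPM), ciliated cells and secretory cells were present in every library, but markers of other cells were found as well. Endothelial markers summed to 85.3 to 399.6 CPM in the ampulla and to 8.02 to 101 CPM in the isthmus. The highest sums of the other lists were 361 CPM for fibroblasts (contralateral isthmus), 145 CPM for lymphocytes and 144 CPM for macrophages (both contralateral ampulla), 94.1 CPM for smooth muscle and 4.45 CPM for adipocytes, and the haemoglobin genes HBB and HBA were at 0 in all libraries. In the contralateral ampulla the library of heifer E stood apart. It was the highest of 14 libraries for 20 of the 40 members, where no other library of this tissue was the highest for more than 3. The edgeR tests that use it were also computed without it, a choice made after seeing the data.

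In the isthmus most members had a higher mean on the side of the CL, in each of the 3 groups of animals. In heifers 9 of 40 members passed the test (edgeR's quasi-likelihood test, Benjamini-Hochberg adjusted p under 0.05 over all genes tested), 8 higher and 1 lower on the ipsilateral side, where 10% of all 13548 genes tested passed (5.71% higher and 4.34% lower). In non-lactating cows 6 of 40 passed, 5 higher and 1 lower, against 5.11% of all genes (2.94% higher and 2.17% lower). In lactating cows none of the 40 passed by edgeR, against 0.187% of all genes tested. At an unadjusted p under 0.05 stood 12 members (30% of 40) and 12.2% of all genes tested. DESeq2 called 4 members (ACSL4, IVD, MCCC1 and ACADSB) and 1.45% of all genes. Here and below, shares by DESeq2 are over every gene with any count, unfiltered, and are not comparable with those by edgeR. The libraries of the 2 sides did not overlap for 7, 6 and 10 of the 40 members in heifers, non-lactating cows and lactating cows, beside 8.98%, 6.56% and 7.62% of all genes. The median log2 fold change of the 40 members was 0.38 in heifers, 0.23 in non-lactating cows and 0.28 in lactating cows, beside medians of -0.01, 0.01 and -0.000935 over all genes tested. These 3 comparisons used separate animals, and 26 members had a higher mean on the ipsilateral side in all 3 of them, 7 a lower mean in all 3 (ACSL1, SLC25A20, ACADL, BCAT1, BCKDHA, AUH and ALDH6A1) and 7 a mixed sign. Among all genes 30.7% were higher and 30.4% lower in all 3. A test of the difference in side effect between metabolic groups called no member (0% of 15031 genes) by edgeR or DESeq2, with an unadjusted p under 0.05 for ACADVL and HIBCH and for 2.05% of all genes.

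**Figure D1:**
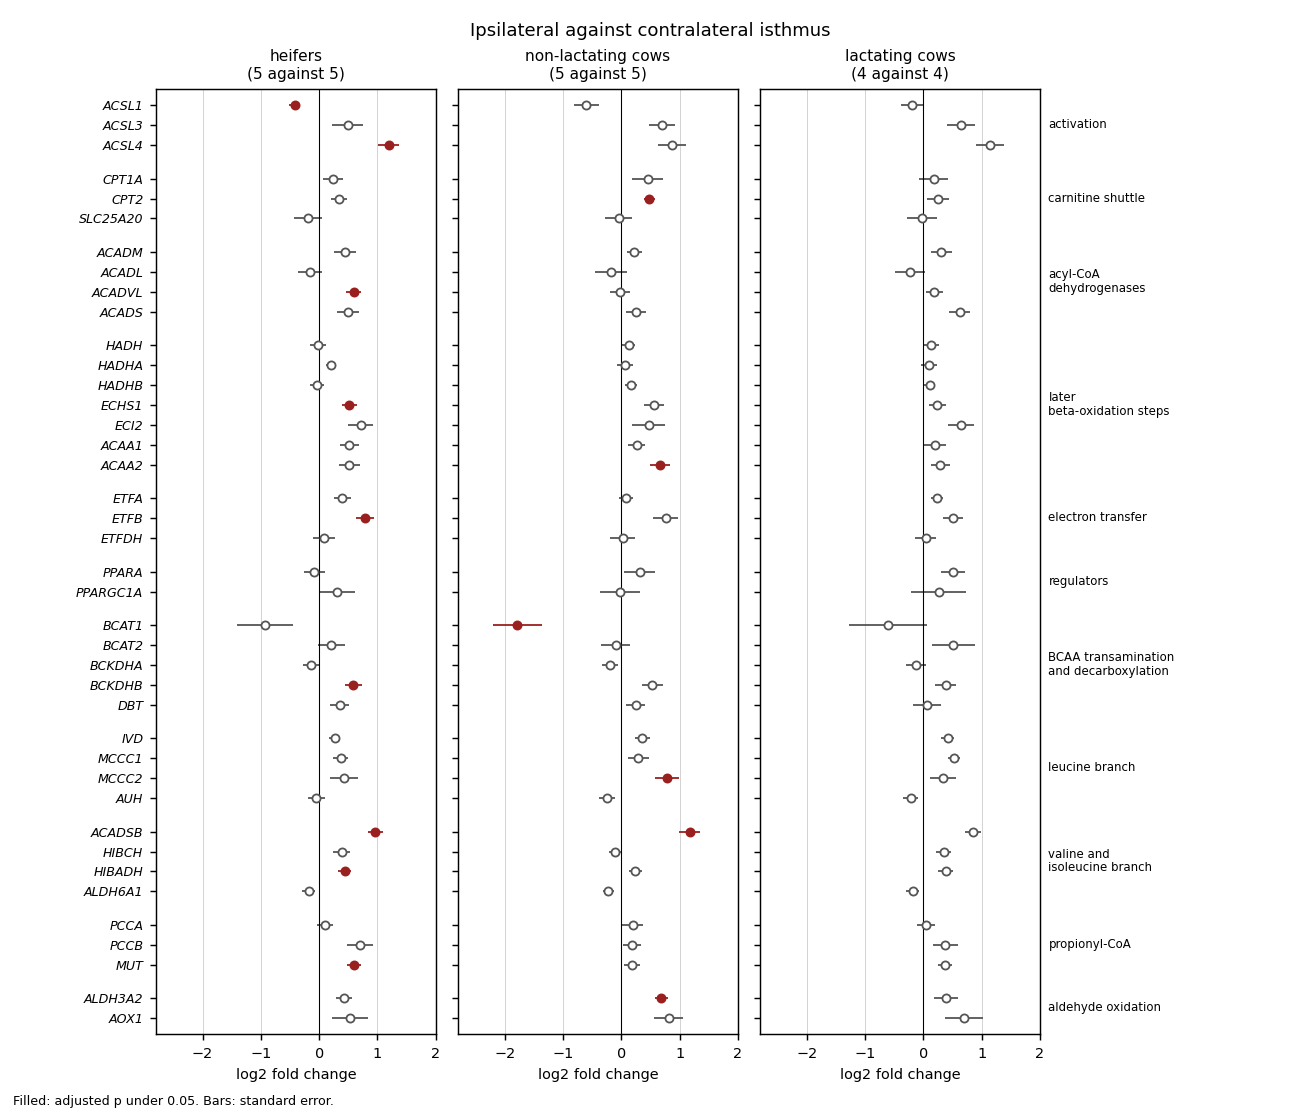
Log2 fold change between the ipsilateral and contralateral isthmus for the 40 members in heifers, non-lactating cows and lactating cows, grouped by role. Points are edgeR estimates, bars are standard errors and filled points passed the test. ACSL4 and ACADSB lie between 0.86 and 1.20 on the log2 scale in the 3 panels, and BCAT1 lies below 0 in each.

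These calls within single groups depended on single animals and on whether libraries were paired. Without heifer E, 2 of the 9 calls of heifers were left (ACSL4 and ACADSB; 1.32% of all genes), and 5 calls were made without heifer A (3.09%) or heifer B (3.86%). In non-lactating cows 2 calls were left without cow D (ACADSB and ALDH3A2; 1.96% of all genes), and 3 each without cow A (1.72%), B (2.24%) or C (1.71%). Blocked by animal number, the fits gave counts of 15 in heifers, 10 in non-lactating cows and 3 in lactating cows (ACSL4, ACADSB and AOX1), each including the calls made without the block. The share of all genes called rose with the block too, to 14.1%, 7.48% and 2.32%.

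Pooled over the 14 animals, with the metabolic group as a covariate, 24 of 40 members passed the test in the isthmus, 21 higher and 3 lower on the ipsilateral side. Of all 15031 genes tested 28.4% passed, 14.9% higher and 13.5% lower. The median log2 fold change was 0.31 for the members and -0.01 for all genes. All 24 calls held under each of the 18 alternative settings tried, every left-out animal included. Of the members of fatty acid oxidation 11 were called higher and 1 lower among 22. Of those of branched-chain amino acid breakdown and related steps 10 were called higher and 2 lower among 18. The aldehyde-oxidizing members ALDH3A2 and AOX1 are among these 10. Within an animal, the median over the 40 members of the ipsilateral minus contralateral difference was above 0 in 14 of 14 animals, from 0.11 to 0.52 log2 CPM, whereas the median over all genes lay between -0.029 and 0.0046. Fewer cells of a type and less RNA per cell cannot be told apart in these bulk samples. In the same comparison 3 of 5 epithelial markers (CDH1, KRT18, KRT8) and 2 of 5 secretory markers (KRT7, WFDC2) were called higher on the ipsilateral side, and of 8 ciliated markers 1 was called higher (CAPS) and 2 lower (CCDC39, DNAH5). Of 4 endothelial markers tested EMCN was called higher and KDR lower, and no tested marker of the other lists was called by edgeR. The summed epithelial markers ranged from 1209 to 1856 CPM in the ipsilateral and from 1082 to 1486 CPM in the contralateral isthmus, and the summed ciliated markers from 2426 to 3854 and from 3087 to 4384 CPM. The summed secretory markers varied more, from 741 to 15703 CPM in the ipsilateral and from 355 to 19090 CPM in the contralateral isthmus. The part of these cell types in the results for the members was not tested.

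**Figure D2:**
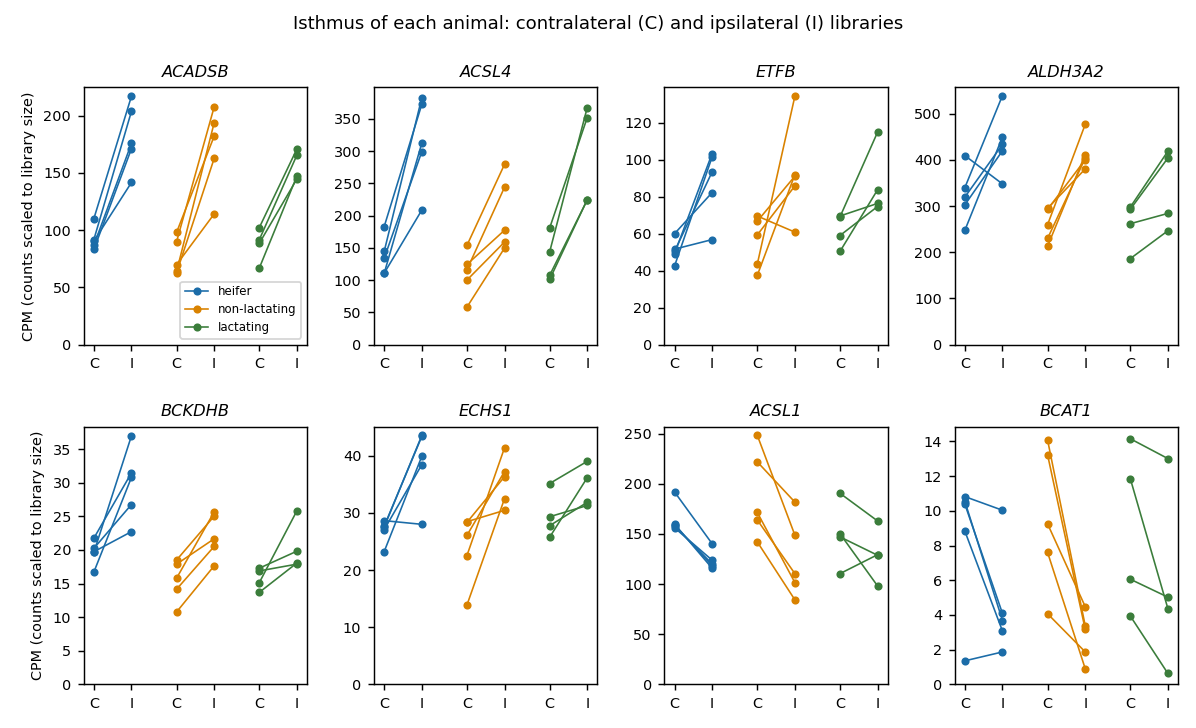
CPM of 8 members in the contralateral (C) and ipsilateral (I) isthmus of each animal, with a line joining the libraries of an animal and colours for heifers, non-lactating and lactating cows. ACADSB, ACSL4 and BCKDHB were higher on the ipsilateral side in 14 of 14 animals, whereas ACSL1 and BCAT1 were higher there in 1 of 14.

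The acyl-CoA synthetases, which activate long-chain fatty acids, moved in both directions. ACSL4, which prefers arachidonic acid and other polyunsaturated substrates, had 299, 382, 372, 208 and 312 CPM in the ipsilateral isthmus of heifers A to E and 134, 145, 183, 111 and 111 CPM in the contralateral isthmus. The ipsilateral libraries of non-lactating cows held 244, 149.6, 279, 177 and 159 CPM and the contralateral ones 116, 58.1, 154, 124 and 100.02 CPM, and in lactating cows 352, 224, 367 and 225 CPM against 181, 107, 144 and 101 CPM. The sides did not overlap in heifers or in lactating cows, and the ipsilateral library was the higher one in every animal. The log2 fold change was 1.20 ± 0.18 (adjusted p = 0.005601) in heifers, 0.87 ± 0.24 (adjusted p = 0.05203) in non-lactating cows, 1.14 ± 0.23 (adjusted p = 0.104) in lactating cows and 1.06 ± 0.14 (adjusted p = 2.06e-06) pooled, a 2.09-fold difference. ACSL3, an endoplasmic reticulum and lipid droplet enzyme, ranged over 178 to 488 CPM (median 237) in the ipsilateral and 110.4 to 329 CPM (median 163) in the contralateral isthmus and was 1.52-fold higher on the ipsilateral side pooled (log2 fold change 0.61 ± 0.15 (adjusted p = 0.00361)), in 13 of 14 animals. ACSL1, the main synthetase of liver and adipose tissue, went the other way: heifers had 140.2, 118, 116, 124 and 120.1 CPM on the ipsilateral side against 192, 159, 159.8, 156 and 158 CPM on the contralateral side, without overlap. Its log2 fold change was -0.42 ± 0.09 (adjusted p = 0.0166) in heifers and -0.42 ± 0.11 (adjusted p = 0.00339) pooled, with a lower ipsilateral library in 13 of 14 animals.

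Of the carnitine shuttle only CPT2, the inner membrane carnitine palmitoyltransferase, passed the test. In non-lactating cows it had 73.2, 63.7, 70.2, 79.4 and 75.1 CPM on the ipsilateral and 51.8, 50.4, 49.00, 53.99 and 54.8 CPM on the contralateral side, without overlap, with a log2 fold change of 0.48 ± 0.10 (adjusted p = 0.01499). Pooled, its log2 fold change was 0.36 ± 0.08 (adjusted p = 0.000869), and it was higher on the ipsilateral side in 14 of 14 animals. CPT1A, the outer membrane enzyme that controls entry of long-chain acyl groups, had a pooled log2 fold change of 0.30 ± 0.15 (adjusted p = 0.129) with a higher ipsilateral library in 12 of 14 animals, and SLC25A20, the translocase between both enzymes, -0.09 ± 0.13 (adjusted p = 0.6604) at levels of at most 10.6 CPM in the isthmus.

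Among the acyl-CoA dehydrogenases, which act on fatty acids of different length, the medium-chain enzyme ACADM and the short-chain enzyme ACADS were called higher on the ipsilateral side of the isthmus pooled. ACADM ranged over 41.95 to 81.96 CPM (median 50.2) in the ipsilateral and 29.4 to 56.2 CPM (median 41.3) in the contralateral isthmus (log2 fold change 0.33 ± 0.10 (adjusted p = 0.0135)), and ACADS over 12.5 to 26.8 CPM (median 16.5) and 9.65 to 18.7 CPM (median 12.6) (log2 fold change 0.44 ± 0.10 (adjusted p = 0.001401)). Both ranges overlapped between sides. ACADVL, the very-long-chain enzyme, had 168, 129, 144, 105 and 120.1 CPM in the ipsilateral isthmus of heifers against 98.3, 93.04, 74.5, 88.4 and 85.04 CPM in the contralateral isthmus, without overlap (log2 fold change 0.59 ± 0.13 (adjusted p = 0.0149)). In non-lactating cows its log2 fold change was -0.02 ± 0.17, and pooled it did not pass (0.26 ± 0.10 (adjusted p = 0.0586)); left-out animals put it on either side of the threshold, with 3 of 18 settings calling it. ACADL, the long-chain enzyme, had a pooled value of -0.18 ± 0.14 (adjusted p = 0.367).

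The later steps of beta-oxidation were called in part. ECHS1, the short-chain enoyl-CoA hydratase that also serves valine breakdown, had 43.4, 38.5, 39.9, 28.02 and 43.6 CPM in the ipsilateral isthmus of heifers and 27.7, 27.1, 23.3, 28.7 and 27.5 CPM in the contralateral isthmus. The ipsilateral library of heifer D lay inside the contralateral range and the other 4 above it, and the log2 fold change was 0.52 ± 0.13 (adjusted p = 0.0281) in heifers and 0.45 ± 0.09 (adjusted p = 0.000321) pooled. ACAA2, the mitochondrial thiolase, had 73.96, 126, 77.98, 95.5 and 75.6 CPM on the ipsilateral and 71.2, 56.01, 46.6, 51.9 and 59.1 CPM on the contralateral side of non-lactating cows, without overlap (log2 fold change 0.66 ± 0.17 (adjusted p = 0.0428)), and 0.50 ± 0.11 (adjusted p = 0.000646) pooled. ACAA1, the peroxisomal thiolase, ranged over 18.9 to 39.8 CPM (median 28.5) in the ipsilateral and 16.01 to 30.6 CPM (median 22.2) in the contralateral isthmus, with a pooled log2 fold change of 0.33 ± 0.09 (adjusted p = 0.008797). ECI2, an isomerase for unsaturated fatty acids, ranged over 11.3 to 39.7 CPM (median 23.1) and 6.47 to 27.6 CPM (median 14.98), with 0.61 ± 0.15 (adjusted p = 0.00276). The trifunctional protein subunits HADHA and HADHB and the 3-hydroxyacyl-CoA dehydrogenase HADH did not pass, at 0.12 ± 0.07, 0.08 ± 0.06 and 0.07 ± 0.07.

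ETFA and ETFB encode the subunits of the electron transfer flavoprotein, which takes electrons from the acyl-CoA dehydrogenases of both pathways. ETFB had 102, 82.3, 103, 56.9 and 93.5 CPM in the ipsilateral isthmus of heifers and 42.6, 60.1, 49.3, 51.7 and 50.5 CPM in the contralateral isthmus, where heifer D was the only ipsilateral library inside the contralateral range. In lactating cows the sides did not overlap, with 83.8, 76.4, 74.8 and 115 CPM against 50.4, 69.6, 59.1 and 69.1 CPM. The log2 fold change of ETFB was 0.78 ± 0.16 (adjusted p = 0.0112) in heifers and 0.69 ± 0.11 (adjusted p = 4.84e-05) pooled, in 13 of 14 animals. The pooled value of ETFA was 0.24 ± 0.08 (adjusted p = 0.0172), and that of ETFDH, the oxidoreductase that hands the electrons to ubiquinone, 0.05 ± 0.12 (adjusted p = 0.802). The regulators were not called, with pooled values of 0.22 ± 0.14 (adjusted p = 0.238) for PPARA and 0.18 ± 0.23 (adjusted p = 0.598) for PPARGC1A.

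BCAT1, the cytosolic transaminase of branched-chain amino acids, was the member with the largest decrease on the ipsilateral side. Non-lactating cows A to E had 3.39, 4.48, 3.18, 0.908 and 1.87 CPM on the ipsilateral side against 14.1, 9.25, 13.2, 7.60 and 4.07 CPM on the contralateral side, and the ipsilateral library was the lower one in every one of these cows although the ranges overlapped. In heifers the values were 4.09, 1.87, 3.07, 10.04 and 3.68 CPM and 10.4, 1.35, 8.83, 10.8 and 10.5 CPM. The log2 fold change was -1.78 ± 0.42 (adjusted p = 0.0299) in non-lactating cows, -0.93 ± 0.48 (adjusted p = 0.236) in heifers and -1.12 ± 0.33 (adjusted p = 0.0117) pooled. The call within non-lactating cows was lost without cow A, B, C or D. The mitochondrial transaminase BCAT2 did not pass pooled (0.19 ± 0.16 (adjusted p = 0.386)).

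Of the branched-chain ketoacid dehydrogenase, the committed step of the pathway, the members are BCKDHA, BCKDHB and DBT, and of these only BCKDHB passed. Its component DLD, not among the 40 members, was called higher in the pooled isthmus (0.37 ± 0.05, adjusted p = 1.51e-05). BCKDHB had 22.7, 30.8, 31.5, 26.8 and 36.99 CPM in the ipsilateral and 19.7, 16.7, 21.7, 20.2 and 19.6 CPM in the contralateral isthmus of heifers, without overlap. Its log2 fold change was 0.59 ± 0.14 (adjusted p = 0.0246) in heifers and 0.51 ± 0.09 (adjusted p = 0.000111) pooled, and the ipsilateral library was higher in 14 of 14 animals. The pooled values of its partner subunit BCKDHA and of the acyltransferase DBT were -0.16 ± 0.09 (adjusted p = 0.179) and 0.23 ± 0.11 (adjusted p = 0.122).

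In the leucine branch, isovaleryl-CoA dehydrogenase (IVD) and both subunits of methylcrotonyl-CoA carboxylase (MCCC1, MCCC2) were called higher on the ipsilateral side. IVD ranged over 142 to 209.8 CPM (median 168) in the ipsilateral and 111 to 177 CPM (median 135) in the contralateral isthmus (log2 fold change 0.34 ± 0.06 (adjusted p = 0.000104)), and each of the 14 animals had the higher level on the ipsilateral side. MCCC1 ranged over 39.02 to 61.3 CPM (median 54.3) and 33.3 to 59.2 CPM (median 38.2) (log2 fold change 0.39 ± 0.08 (adjusted p = 0.000874)). The lactating cows separated for both genes, with IVD at 161, 152, 192 and 164 CPM against 119.6, 122, 127 and 136 CPM. MCCC2 had 24.2, 20.9, 23.7, 28.5 and 24.3 CPM on the ipsilateral and 12.4, 7.71, 20.7, 14.4 and 14.4 CPM on the contralateral side of non-lactating cows, barely apart (log2 fold change 0.78 ± 0.21 (adjusted p = 0.0478)), and 0.53 ± 0.14 (adjusted p = 0.00443) pooled. AUH, the methylglutaconyl-CoA hydratase that follows, had a pooled value of -0.17 ± 0.07 (adjusted p = 0.0825).

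ACADSB, the short/branched-chain acyl-CoA dehydrogenase of isoleucine breakdown, was the member with the smallest adjusted p on the side comparison. Its ipsilateral libraries held 171, 176, 217, 142 and 204 CPM in heifers, 194, 208, 163, 182 and 114 CPM in non-lactating cows and 165, 171, 147 and 145 CPM in lactating cows. The contralateral libraries held 83.1, 86.7, 110.03, 90.4 and 91.7 CPM, 63.9, 89.9, 62.8, 98.03 and 69.9 CPM and 91.6, 102, 66.9 and 88.5 CPM. The lowest of the 14 ipsilateral libraries (114 CPM) lay above the highest of the 14 contralateral ones (110.0 CPM), and ACADSB was the only member of which this was true, as it was of 0.133% of all genes. The log2 fold change was 0.97 ± 0.13 (adjusted p = 0.005601) in heifers, 1.17 ± 0.18 (adjusted p = 0.00429) in non-lactating cows, 0.86 ± 0.14 (adjusted p = 0.0546) in lactating cows and 1.01 ± 0.09 (adjusted p = 2.05e-08) pooled.

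Of the valine enzymes, HIBADH, the 3-hydroxyisobutyrate dehydrogenase, had 71.2, 67.96, 68.5, 55.6 and 75.5 CPM in the ipsilateral and 42.9, 43.8, 55.1, 51.9 and 53.9 CPM in the contralateral isthmus of heifers, without overlap (log2 fold change 0.44 ± 0.11 (adjusted p = 0.0288)), and 0.35 ± 0.06 (adjusted p = 0.000138) pooled. ALDH6A1, the methylmalonate semialdehyde dehydrogenase, was lower on the ipsilateral side, over 70.6 to 92.7 CPM (median 79.02) against 80.7 to 102 CPM (median 92.3), with a pooled log2 fold change of -0.20 ± 0.05 (adjusted p = 0.00677) and a lower ipsilateral library in 12 of 14 animals. HIBCH, which acts before HIBADH, did not pass (0.20 ± 0.08 (adjusted p = 0.0749)).

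Propionyl-CoA is carried to succinyl-CoA by propionyl-CoA carboxylase (PCCA, PCCB) and the vitamin B12-dependent mutase MUT. MUT had 170.1, 144, 199, 136 and 185 CPM in the ipsilateral and 108, 92.6, 126, 115 and 107 CPM in the contralateral isthmus of heifers, without overlap, with a log2 fold change of 0.60 ± 0.12 (adjusted p = 0.01304), and 0.38 ± 0.08 (adjusted p = 0.000488) pooled. PCCB was called pooled as well, over 26.9 to 67.9 CPM (median 38.8) against 20.6 to 39.6 CPM (median 29.03) (log2 fold change 0.42 ± 0.12 (adjusted p = 0.0118)), whereas its partner subunit PCCA had 0.12 ± 0.09 (adjusted p = 0.374). Both aldehyde-oxidizing members were higher on the ipsilateral side. ALDH3A2, the fatty aldehyde dehydrogenase, had 412, 400.3, 403, 380.4 and 477 CPM on the ipsilateral and 213, 293, 230.1, 295 and 259.9 CPM on the contralateral side of non-lactating cows, without overlap (log2 fold change 0.69 ± 0.12 (adjusted p = 0.00701)), and 0.51 ± 0.09 (adjusted p = 0.000144) pooled. AOX1, aldehyde oxidase, ranged over 96.95 to 262 CPM (median 145) and 53.6 to 238 CPM (median 82.3), with 0.68 ± 0.18 (adjusted p = 0.00601) pooled and a higher ipsilateral library in 14 of 14 animals.

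Other genes of these pathways were taken from a list of 72, of which 70 were in the table and 66 were tested in the pooled isthmus. The median of the 66 log2 fold changes was 0.07, beside -0.01 for all genes. Of the 66, 19 were called higher and 6 lower on the ipsilateral side, beside 14.9% and 13.5% of all 15031 genes. The 8 with the largest changes were SLC7A5, an importer of large neutral amino acids (2.02 ± 0.21, adjusted p = 1.46e-07), the acyl-CoA binding protein gene DBI (1.44 ± 0.15, adjusted p = 1.53e-07), the peroxisomal thiolase and sterol carrier gene SCP2 (1.32 ± 0.16, adjusted p = 1.01e-06), the ketone body enzyme BDH1 (1.30 ± 0.33, adjusted p = 0.00346), the methylmalonyl-CoA epimerase MCEE (0.76 ± 0.18, adjusted p = 0.00232) and the cytosolic HMG-CoA synthase HMGCS1 (0.72 ± 0.15, adjusted p = 0.000607) among those higher. The kinase PDK4, which shuts off pyruvate dehydrogenase (-1.10 ± 0.26, adjusted p = 0.00187), and the acetyl-CoA carboxylase ACACB, whose product inhibits carnitine palmitoyltransferase 1 (-1.05 ± 0.32, adjusted p = 0.0148), were lower on the ipsilateral side.

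In the ampulla the sides differed for fewer members. BCAT1 did not pass the filter on low counts there, so that 39 members were tested. By edgeR no member was called within heifers, non-lactating cows or lactating cows, where 0%, 0.0947% and 0% of all genes were called. An unadjusted p under 0.05 was found for 7, 13 and 3 members (17.9%, 33.3% and 7.69% of 39), beside 9.2%, 11.1% and 4.26% of all genes. DESeq2 called 0, 2 (ALDH3A2 and AOX1) and 0 members, beside 0.267%, 0.568% and 0.0499% of all genes with any count. Blocked by animal number, 2 were called in non-lactating cows (CPT1A and ACADSB; 1.08% of all genes), none after the exchanged numbers were corrected (0.736%), and 5 when the mismatched libraries were swapped as well (ACSL3, ACAA2, PPARGC1A, ALDH3A2 and AOX1; 1.46%).

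Pooled over the 14 animals 7 of 39 members were called between the sides of the ampulla, 4 higher and 3 lower, beside 4.99% of all 15270 genes (2.57% higher and 2.42% lower). The median log2 fold change was 0.04 for the members and -0.0079 for all genes. ACAA2 ranged over 49.5 to 128 CPM (median 83.9) in the ipsilateral and 44.1 to 101 CPM (median 56.8) in the contralateral ampulla, and it was higher on the ipsilateral side in 14 of 14 pairs (log2 fold change 0.52 ± 0.10 (adjusted p = 0.00378)). ACADSB ranged over 100.1 to 181 CPM (median 134) and 55.6 to 131 CPM (median 97.5) (log2 fold change 0.46 ± 0.11 (adjusted p = 0.0165)), and ALDH6A1 over 70.1 to 100.5 CPM (median 86.1) and 88.01 to 123 CPM (median 109) (-0.30 ± 0.07 (adjusted p = 0.009600)). The sides overlapped for each of these 3 genes, whose calls held under all 23 alternative settings.

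The other 4 calls in the ampulla did not hold under all settings. Of 23 alternative settings ALDH3A2 was called in 20, AOX1 in 18, ACADVL in 15 and PPARGC1A in 10. ALDH3A2 ranged over 172 to 393 CPM (median 308) and 151 to 333 CPM (median 229) (log2 fold change 0.36 ± 0.09 (adjusted p = 0.0253)), and AOX1 over 106 to 307 CPM (median 168) and 64.6 to 219 CPM (median 106) (0.56 ± 0.15 (adjusted p = 0.0296)). ACADVL and PPARGC1A were lower on the ipsilateral side, ACADVL over 43.3 to 66.7 CPM (median 53.4) against 42.7 to 153 CPM (median 66.3) (-0.47 ± 0.13 (adjusted p = 0.0316)) and PPARGC1A over 5.64 to 26.4 CPM (median 13.4) against 10.4 to 30.8 CPM (median 19.3) (-0.65 ± 0.19 (adjusted p = 0.0435)). With both mismatched libraries left out 4 members were called (3.4% of all genes), and ACADVL, PPARGC1A and AOX1 were not among them. Without non-lactating cow A 3 were called (3.10%) and without non-lactating cow B 4 (2.96%), whereas 14 were called (10.3%) in a fit blocked by animal with the numbers corrected and the mismatched libraries swapped. Without the contralateral library of heifer E 9 were called (7.06%), the 7 above with PCCA and PCCB. The median over the 39 members within a pair of ampulla libraries was above 0 in 11 of 14 and above the median over all genes of the same pair in 9 of 14. It ran from -0.05 to 0.30 log2 CPM, and the median over all genes from -0.0155 to 0.0373. None of the 8 ciliated, 5 secretory or 5 epithelial markers, and no tested marker of the other lists, was called by edgeR between the sides of the ampulla. The difference in side effect between metabolic groups in the ampulla was called for no member (0% of genes, edgeR and DESeq2), with an unadjusted p under 0.05 for ACADM, ECHS1 and ETFDH and for 1.15% of all genes.

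**Figure D3:**
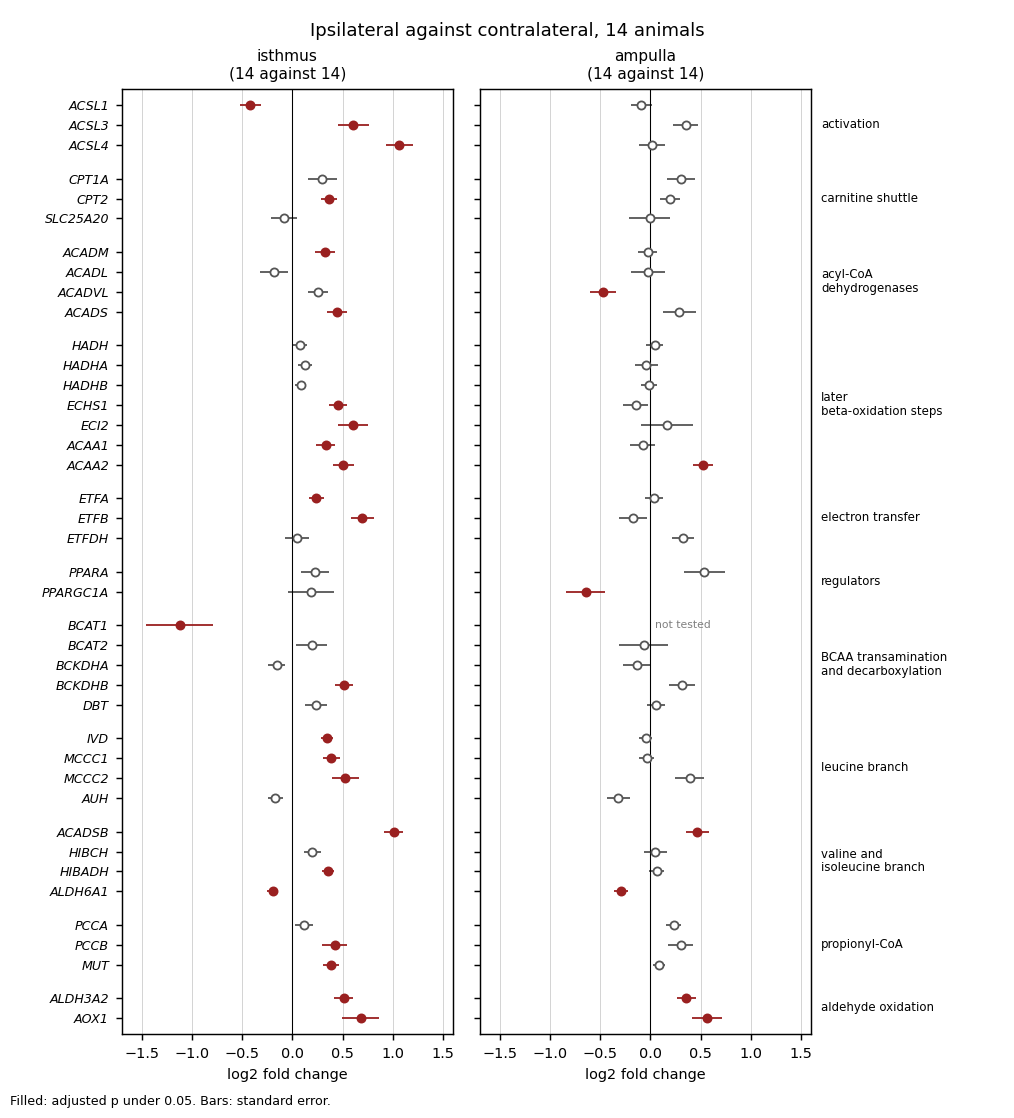
Log2 fold change between the ipsilateral and contralateral side for the 40 members, pooled over 14 animals, in the isthmus (left) and the ampulla (right). Points are edgeR estimates, bars are standard errors and filled points passed the test, 24 in the isthmus and 7 in the ampulla. ACADVL and PPARGC1A lie above 0 in the isthmus without passing and below 0 in the ampulla.

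The side effects of the isthmus and the ampulla were compared by an interaction term over all 56 libraries. It was called for 8 of 40 members, each with the more positive side effect in the isthmus, beside 4.95% of all 16060 genes (3.19% more positive and 1.76% more negative in the isthmus). The difference in log2 fold change was 1.05 ± 0.20 (adjusted p = 0.000929) for ACSL4, which had a value of 0.02 ± 0.13 in the ampulla, 0.83 ± 0.19 (adjusted p = 0.00619) for ETFB (-0.17 ± 0.14 in the ampulla) and 0.71 ± 0.17 (adjusted p = 0.00765) for ACADVL. It was 0.59 ± 0.15 (adjusted p = 0.0158) for ECHS1, 0.54 ± 0.15 (adjusted p = 0.0301) for ACADSB, 0.42 ± 0.11 (adjusted p = 0.0202) for MCCC1, 0.40 ± 0.09 (adjusted p = 0.00487) for IVD and 0.30 ± 0.09 (adjusted p = 0.0456) for MUT. ACADSB was thus called between sides in both regions, with the larger difference in the isthmus. The calls of ACSL4, ETFB, ACADVL and IVD held under all 23 alternative settings, whereas MUT was lost under 14 of them, the animal block, the mismatched libraries left out and the contralateral ampulla library of heifer E left out among them, and ACADSB under 9, each with an animal left out. The count fell to 5 without lactating cow C (3.24% of all genes), lactating cow D (3.46%) or non-lactating cow A (3.91%). For ACAA2 (-0.03 ± 0.15) and AOX1 (0.12 ± 0.26), called between sides in both regions and not by the interaction, the difference between regions was smaller than its standard error. ALDH3A2 and ALDH6A1 were also called between sides in both regions and not by the interaction. Of the markers KRT18 and CAPS were called in the same direction by this interaction, and their part in the members' values was not tested.

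**Figure D4:**
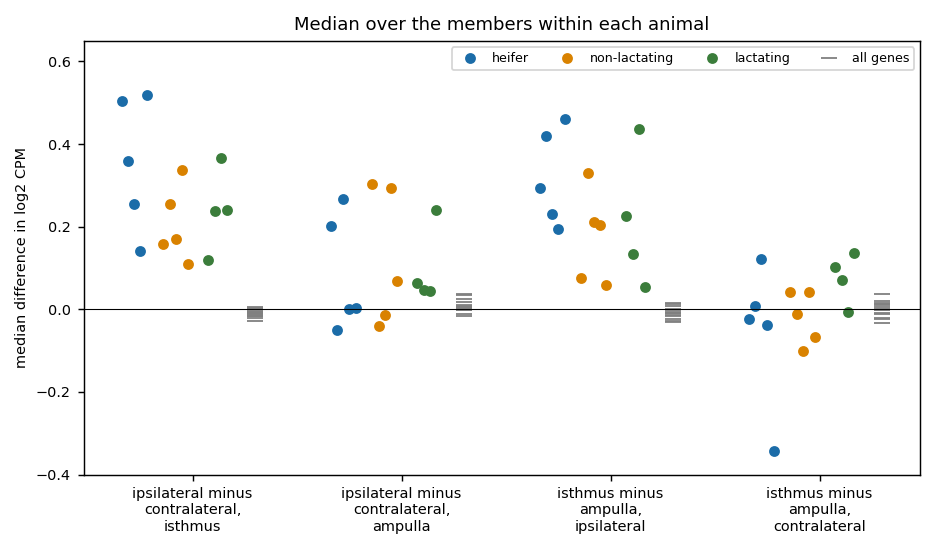
Median over the members of the difference in log2 CPM within each animal, for the sides of the isthmus and of the ampulla and for the regions of each side, coloured by metabolic group. Grey marks are the medians over all genes in the same animals. All 14 animals lie above 0 for the sides of the isthmus (0.11 to 0.52) and for the regions of the ipsilateral side (0.05 to 0.46). Heifer E is the lowest point for the regions of the contralateral side (-0.34). In the differences that use the ipsilateral ampulla, the points of heifer B, non-lactating cows B and C and lactating cow B join libraries whose animal is in doubt.

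Between isthmus and ampulla members were called in both directions. BCAT1, with 0 to 1.83 CPM (median 0.442) in the ipsilateral and 0 to 1.80 CPM (median 0.743) in the contralateral ampulla and 0 counts in 5 libraries, passed the filter on low counts through the isthmus alone, where it ranged over 0.625 to 13.01 CPM (median 3.53) and 1.35 to 14.2 CPM (median 9.82). No test between regions is given for it, and the 39 members that passed in each region are counted here. Of these, 27 had a higher estimate in the isthmus than in the ampulla on the ipsilateral side, and 18 on the contralateral side. Ipsilateral, 23 of 39 were called, 18 higher and 5 lower in the isthmus, beside 49.3% of the 14442 genes that passed in each region (23.8% higher and 25.4% lower), with a median of 0.17 for the members and -0.02 for these genes. Contralateral, 24 of 39 were called, 12 higher and 12 lower, beside 42.6% of 14459 genes (20.7% higher and 21.8% lower), with medians of -0.02 and -0.01. Over every gene with enough counts in at least one region the called share was 50.3% and 43.5%. Within animals the median over the members was above 0 in 14 of 14 on the ipsilateral and in 7 of 14 on the contralateral side. On the contralateral side heifer E had -0.34 log2 CPM and the other 13 animals -0.10 to 0.14. Its contralateral ampulla library held 205.7 CPM of ETFB, 153 CPM of ACADVL, 187 CPM of HADHA and 129.9 CPM of BCKDHA, the highest of that tissue in each case. Without this library ACADVL was called as well on the contralateral side, and no call was lost (45.5% of all genes called). The regions did not overlap for 4 members on the ipsilateral side (ACSL3, ACADVL, DBT and HIBCH) and for 3 on the contralateral side (ACSL3, ETFB and HIBCH), beside 4.82% and 3.94% of all genes. The ipsilateral region and the pooled side of the isthmus use the same ipsilateral isthmus libraries. Ciliated markers were lower in the isthmus, 7 of 8 on the ipsilateral and 8 of 8 on the contralateral side, their sums ranging from 3592 to 6515 CPM in the ampulla and from 2426 to 4384 CPM in the isthmus. Of 4 endothelial markers tested 3 (EMCN, KDR and PECAM1) were also lower in the isthmus on both sides, and epithelial markers were higher (5 of 5 ipsilateral, 2 of 5 contralateral). Of 5 secretory markers 2 were lower, MSLN and PAX8 ipsilateral and MSLN and KRT7 contralateral. The secretory sums ranged from 3022 to 38645 CPM in the ampulla and from 355 to 19090 CPM in the isthmus. The fibroblast markers DCN and LUM were higher and COL1A2 lower on both sides, and of the smooth muscle markers MYH11 was higher and SMTN lower on both sides, with ACTA2 lower ipsilateral and DES lower contralateral. No lymphocyte, macrophage or adipocyte marker tested was called by edgeR. The part of these cell types in the members' differences was not tested.

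ACSL3 ranged over 63.4 to 109.5 CPM (median 86.9) in the ipsilateral ampulla and 31.7 to 97.4 CPM (median 70.9) in the contralateral ampulla, below every isthmus library of the same side, with log2 fold changes of 1.64 ± 0.13 (adjusted p = 1.06e-11) and 1.39 ± 0.16 (adjusted p = 1.56e-08). PPARGC1A was higher in the isthmus on both sides, over 10.5 to 95.2 CPM (median 33.4) in the ipsilateral and 12.9 to 67.98 CPM (median 30.7) in the contralateral isthmus, with 1.58 ± 0.25 (adjusted p = 4.07e-06) and 0.77 ± 0.20 (adjusted p = 0.00183). Its ranges overlapped between regions.

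ECI2 and ACADVL followed among the members higher in the ipsilateral isthmus. ECI2 ranged over 2.45 to 16.6 CPM (median 9.16) in the ipsilateral ampulla, and its log2 fold change was 1.26 ± 0.19 (adjusted p = 1.62e-06) ipsilateral and 0.83 ± 0.24 (adjusted p = 0.00527) contralateral. ACADVL did not overlap between the ipsilateral regions (1.05 ± 0.09 (adjusted p = 2.21e-10)) and did not pass on the contralateral side (0.33 ± 0.14 (adjusted p = 0.0546)). HIBCH, like ACSL3, did not overlap between regions on either side, at 0.94 ± 0.09 ipsilateral and 0.80 ± 0.10 contralateral.

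DBT, HADH, HADHA, HADHB and PCCA were called lower in the isthmus on both sides. They did not stand for their whole groups. Of the 7 later steps of beta-oxidation 3 were called lower and 2 higher on the ipsilateral side, and 4 lower and 1 higher on the contralateral side. Of the ketoacid dehydrogenase subunits among the members DBT was lower, BCKDHB higher on both sides and BCKDHA not called. DBT ranged over 63.1 to 94.9 CPM (median 78.1) in the ipsilateral and 52.1 to 91.6 CPM (median 79.01) in the contralateral ampulla against 37.4 to 62.6 CPM (median 52.9) and 31.2 to 67.3 CPM (median 42.00) in the isthmus, with log2 fold changes of -0.62 ± 0.07 (adjusted p = 5.37e-08) and -0.78 ± 0.12 (adjusted p = 2.41e-06). HADH fell from 55.9 to 98.7 CPM (median 74.9) in the contralateral ampulla to 43.2 to 61.8 CPM (median 54.3) in the contralateral isthmus (-0.52 ± 0.07 (adjusted p = 1.31e-06)). It had a similar value on the ipsilateral side (-0.49 ± 0.08 (adjusted p = 9.53e-06)). On either side 0 of 14 pairs were higher in the isthmus, the ipsilateral pairs with mismatched ampulla libraries included. PCCA was lower at -0.50 ± 0.07 (adjusted p = 2.58e-07) ipsilateral and -0.37 ± 0.10 (adjusted p = 0.00235) contralateral. Both trifunctional protein subunits were called lower on both sides, HADHA at -0.24 ± 0.08 and -0.39 ± 0.11 and HADHB at -0.24 ± 0.07 and -0.32 ± 0.07.

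Further members were called between regions. ACSL1, CPT1A, ACADS, PPARA, BCKDHB, MCCC2, HIBCH, PCCB and ALDH3A2 were called higher in the isthmus on both sides, with log2 fold changes between 0.27 (ALDH3A2, contralateral) and 0.94 (ACSL1, contralateral). ACADM, ACAA1, IVD and ACADSB were called higher on the ipsilateral side, at 0.28, 0.30, 0.39 and 0.34, with contralateral values of -0.06, -0.10, 0.01 and -0.19. ECHS1, MCCC1, HIBADH, ALDH6A1 and MUT were called lower on the contralateral side, between -0.36 (MCCC1) and -0.18 (MUT), with ipsilateral values between -0.10 (ALDH6A1) and 0.25 (ECHS1).

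ETFB and ACSL4 differed between regions according to the side. ETFB ranged over 74.1 to 206 CPM (median 87.98) in the contralateral ampulla and 37.4 to 69.6 CPM (median 55.4) in the contralateral isthmus, without overlap (-0.82 ± 0.14 (adjusted p = 2.69e-05), and -0.68 without the library of heifer E), but over 53.8 to 127 CPM (median 83.2) and 56.9 to 134 CPM (median 88.5) on the ipsilateral side (0.03 ± 0.12 (adjusted p = 0.839)). ACSL4 was lower in the isthmus on the contralateral side (-0.58 ± 0.15 (adjusted p = 0.00214)) and higher there on the ipsilateral side (0.45 ± 0.14 (adjusted p = 0.00649)). For both genes the difference between these values is the interaction of side and region that was called.

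**Figure D5:**
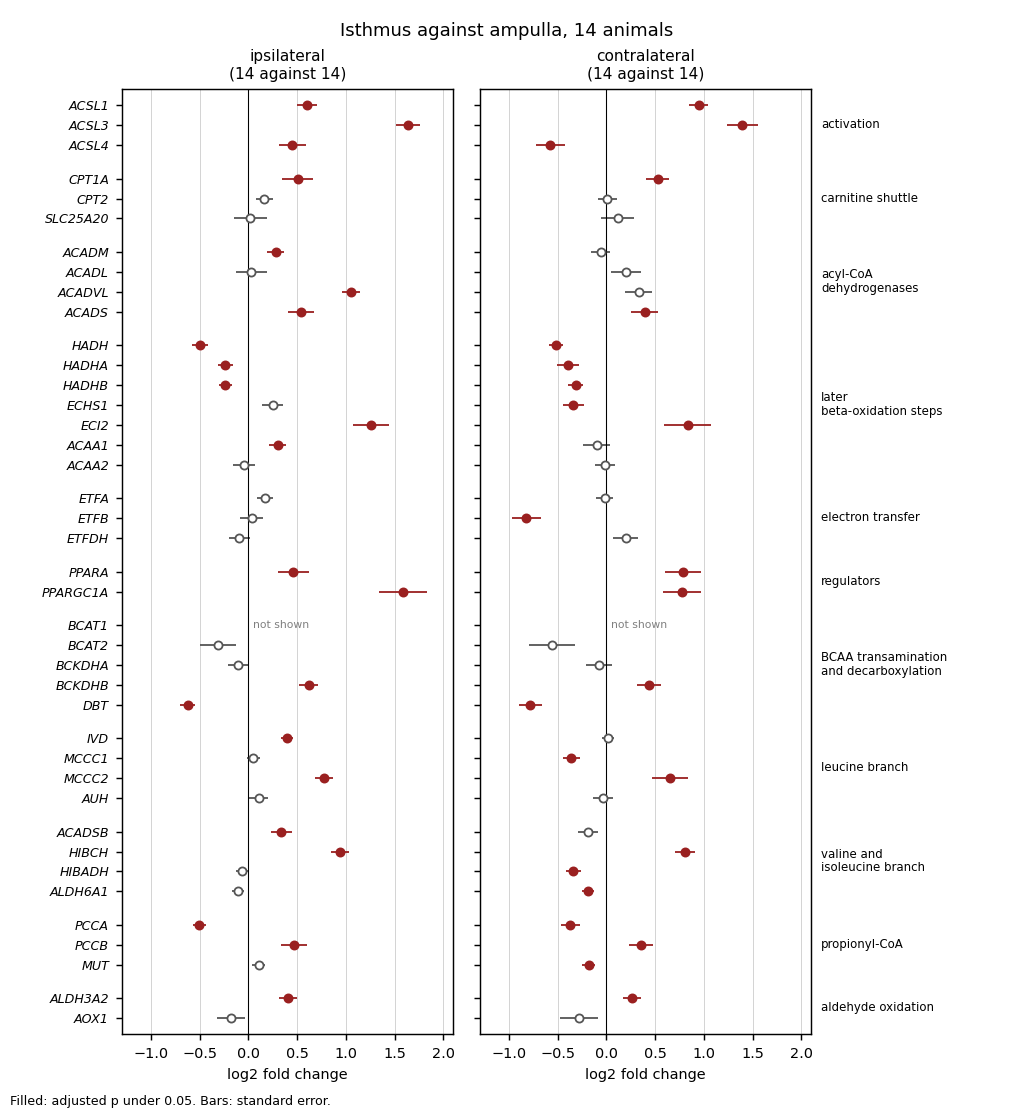
Log2 fold change between isthmus and ampulla for 39 members, pooled over 14 animals, on the ipsilateral (left) and contralateral (right) side. Points are edgeR estimates, bars are standard errors and filled points passed the test, 23 on the ipsilateral and 24 on the contralateral side. BCAT1, which passed the filter on low counts in the isthmus alone, is not shown, and DBT, HADH, HADHA, HADHB and PCCA lie to the left of 0 on both sides.

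Between metabolic groups no member was called by edgeR in any tissue. In the ipsilateral isthmus 0% of genes were called between lactating cows and heifers and 0.00730% between non-lactating cows and heifers. Between lactating and non-lactating cows the share was 0%. An unadjusted p under 0.05 was found for 3, 7 and 2 members (7.50%, 17.5% and 5% of 40), beside 10.4%, 11.8% and 6.26% of all genes. The 3 were ACAA1, BCKDHB and ECI2, the 7 were ACADVL, ACSL4, BCKDHB, ECI2, ETFA, HIBCH and PPARGC1A, and the 2 were ACSL4 and HIBCH. DESeq2 called HIBCH between non-lactating cows and heifers (1.03% of all genes with any count) and no member in the other 2 comparisons (0.639% and 0.0701%). In the ipsilateral ampulla 0% of genes were called in each of the 3 comparisons, and no member was called by DESeq2. At an unadjusted p under 0.05 stood 2, 1 and 0 members and 7.15%, 3.63% and 3.57% of all genes. The 2 were ACSL4 and PPARGC1A (lactating cows against heifers), and the 1 was PPARGC1A (non-lactating cows against heifers). The 3 groups tested together on the contralateral side gave 0 members in the isthmus (0.00704% of genes; 3 members and 8.70% of genes unadjusted; DESeq2 calling PPARA and 0.170% of genes) and 0 in the ampulla (0% of genes; 4 members and 4.52% of genes unadjusted; no member by DESeq2).

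Some differences between groups, none of them called by edgeR, are given here as examples and not as the largest. PPARGC1A in the ipsilateral isthmus was 66.9, 33.6, 33.2, 36.4 and 73.97 CPM in heifers, 10.5, 32.5, 39.7, 23.1 and 26.99 CPM in non-lactating cows and 29.1, 95.2, 24.1 and 34.2 CPM in lactating cows, with overlap between all groups. Its log2 fold change was -0.85 ± 0.33 (adjusted p = 0.3302) for non-lactating cows against heifers and -0.09 ± 0.41 (adjusted p = 0.959) for lactating cows against heifers, which share the heifers. In the ipsilateral ampulla the corresponding values were -0.69 ± 0.28 (adjusted p = 0.999) and -1.14 ± 0.33 (adjusted p = 0.515).

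HIBCH in the ipsilateral isthmus was 98.3, 68.5, 74.1, 59.4 and 75.3 CPM in heifers, 49.4, 53.2, 58.3, 51.95 and 50.5 CPM in non-lactating cows and 54.7, 65.4, 68.3 and 67.2 CPM in lactating cows. The heifers and the non-lactating cows did not overlap, as was the case for 2.25% of all genes, and the log2 fold change between them was -0.49 ± 0.13 (adjusted p = 0.189). ECI2 and BCKDHB had lower means in both groups of cows than in heifers, without passing, at -0.63 ± 0.24 (adjusted p = 0.334) and -0.55 ± 0.22 (adjusted p = 0.435) for ECI2 and -0.41 ± 0.16 (adjusted p = 0.334) and -0.54 ± 0.18 (adjusted p = 0.345) for BCKDHB. BCKDHB averaged 29.8 ± 5.36 CPM (SD, n = 5) in heifers, 22.1 ± 3.31 CPM (SD, n = 5) in non-lactating cows and 20.4 ± 3.72 CPM (SD, n = 4) in lactating cows. Over the 40 members the median log2 fold change in the ipsilateral isthmus was -0.10 for non-lactating cows and -0.11 for lactating cows against heifers, beside 0.01 and 0.0091 for all genes, and 0.02 between both groups of cows.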

How the data were processed

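Epithelial cells of both regions and both sides of the oviduct of 14 animals gave 56 stranded RNA-seq libraries of single-end reads. The authors used TopHat2 (version 2.0.13) to map reads on the cattle genome build bosTau7 (Btau_4.6.1) and htseq-count (version 0.6.1) to count them per gene, by strand. The deposited values are raw counts per gene for 31903 genes. The last 5 lines, htseq-count's own totals, were dropped: reads outside genes or assigned to several genes made up 28.3 to 50.1% of its tally, and counts on genes 8.66 to 13.7%. No sequences or coordinates are given, since the reference table is of another assembly.

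The 40 members and all lists of genes were chosen with earlier results of these data known. Counts were scaled by TMM and filtered by edgeR's filterByExpr (minimum count 10), and tested by edgeR's quasi-likelihood test (version 4.0.16, R 4.3.3) with Benjamini-Hochberg adjustment over all genes of a fit. Fits within a metabolic group had no other term, and pooled fits had the metabolic group as covariate. The standard error is the absolute log2 fold change over the square root of F, and log2 CPM used a prior count of 2. The tests were checked on simulated counts. DESeq2 (version 1.42.0), RLE size factors, no filter, an animal block and each animal left out were the alternatives, and leaving out the mismatched libraries, swapping them together with the block, and leaving out the contralateral ampulla library of heifer E were added after seeing the data. Replicates within a condition are separate animals. In the tests between sides or regions each animal gave libraries to both groups compared, and the main fits did not use this pairing. Members given in full were those called between sides, between metabolic groups or in an interaction, and the 5 largest increases and decreases between regions, together with members that miss the threshold named for their role. Of the other pathway genes, the 8 with the largest change among those called were named.

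The animal numbers in the column names pair libraries of the same animal. As deviations from group means over 10621 genes, both sides of a region in an animal correlated at a median r of 0.39 in the isthmus (14 pairs, 11 above 0.1) and 0.27 in the ampulla (12 pairs, 9 above 0.1).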

Additional observations from a re-analysis of the deposited data

Results flagged for a closer look

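In 162 groups of 4 or 5 libraries 17 libraries stood apart from the rest of their group by Dixon's criterion, which chance meets in about 1 in 20 groups. The groups were 84 of the isthmus, for the 14 members called within a metabolic group, with 7 such libraries, and 78 of the ampulla, for the 13 members called in the pooled ampulla or by the interaction, with 10. BCAT1, the cytosolic transaminase, stood apart in heifers on both sides: heifer B had 1.35 CPM in the contralateral isthmus, where the other heifers had 8.83 to 10.8, and heifer D had 10.04 CPM in the ipsilateral isthmus, where the others had 1.87 to 4.09. MCCC2 was 35.7 CPM in the contralateral isthmus of heifer C (others 14.9 to 19.4) and 28.5 CPM in the ipsilateral isthmus of lactating cow B (others 17.6 to 19.2). CPT2 was 92.3 CPM in the same library of lactating cow B (others 62.8 to 65.8). ACSL1 was 191.8 CPM in the contralateral isthmus of heifer A (others 156 to 159.8), and ECHS1 was 23.3 CPM in that of heifer C (others 27.1 to 28.7).

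In the contralateral ampulla heifer E stood apart for 3 members, with 152.5 CPM of ACADVL (others 61.1 to 69.5), 55.9 CPM of ECHS1 (others 32.8 to 38.8) and 205.7 CPM of ETFB (others 75.1 to 98.2). In the same tissue ETFB was 162 CPM in non-lactating cow E (others 74.2 to 98.9), ACAA2 was 101 CPM in heifer C (others 59.3 to 67.3), MCCC1 was 62.9 CPM in non-lactating cow D (others 50.9 to 53.6), ALDH6A1 was 118 CPM in lactating cow B (others 88.01 to 90.7) and ALDH3A2 was 171 CPM in non-lactating cow A (others 223 to 245). In the ipsilateral ampulla PPARGC1A was 15.5 CPM in the library placed as lactating cow B (others 5.64 to 6.68) and MCCC1 was 42.4 CPM in heifer C (others 52.7 to 54.2).

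The side effect differed between isthmus and ampulla, by an interaction term over all libraries, for 8 members. The difference in log2 fold change, isthmus minus ampulla, was 1.05 for ACSL4, 0.83 for ETFB, 0.71 for ACADVL, 0.59 for ECHS1, 0.54 for ACADSB, 0.42 for MCCC1, 0.40 for IVD and 0.30 for MUT.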

How the results depend on the processing

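The count of members called between sides rose most with DESeq2 and with the animal number as a replicate block. In the isthmus DESeq2 gave 15 in heifers, 11 in non-lactating cows and 4 in lactating cows. These stood beside 8.33%, 5.37% and 1.45% of all genes with any count. The block gave 15, 10 and 3 (14.1%, 7.48% and 2.32% of the genes that passed the filter). Without a filter 1 member was called in lactating cows (0.244% of all genes with any count). Shares over genes with any count, as for DESeq2 here, are not comparable with shares over filtered genes. In the ampulla of non-lactating cows DESeq2 gave 2 (0.568%), the block 2 (1.08%), and the block after correcting the exchanged numbers and swapping the mismatched libraries 5 (1.46%). In the ipsilateral isthmus DESeq2 gave 1 member for non-lactating cows against heifers (1.03%), and 1 for the 3 groups in the contralateral isthmus (0.170%). In the pooled ampulla 4 members were called with the mismatched libraries left out (3.4%) and 14 with the block, corrected numbers and swapped libraries (10.3%). Without the contralateral ampulla library of heifer E no count moved by more than 1.5 times. The cause of these shifts was not tested. With an animal left out the count ran from 2 to 9 in the isthmus of heifers, from 2 to 5 in that of non-lactating cows, from 3 to 8 in the pooled ampulla and from 5 to 9 for the interaction of side and region; each such fit had fewer libraries. In the pooled isthmus it ran from 24 to 26. The block moved no other count by more than 1.5 times, and no named member changed sign under any alternative. Of the values of named members under settings other than left-out animals 350 kept their side of the threshold and 10 lost it. With an animal left out 691 values kept their side, 81 lost the threshold and 3 gained it. RLE size factors changed no count by more than 1. Depth limits low members most, since BCAT1 had 0 counts in 5 libraries.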

Other observations

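Counted by overlap, the lactating cows did not have the fewest members that separated the sides of the isthmus, although none of their members was called and 0.187% of all genes were. The ipsilateral and contralateral libraries did not overlap for 10 members in lactating cows (4 against 4 libraries), for 7 in heifers and for 6 in non-lactating cows (5 against 5 libraries each). Among all genes tested 7.62%, 8.98% and 6.56% did not overlap in the same comparisons, against 25%, 17.5% and 15% of the 40 members. The 10 were ACSL4, ACADS, ETFB, PPARA, BCKDHB, IVD, MCCC1, ACADSB, HIBADH and MUT, named after their values were seen, and each was higher on the ipsilateral side. With 4 libraries a side such separation is met more easily than with 5. The test of the difference in side effect between metabolic groups called no member by edgeR.

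Subunits of the same complex took different values between the sides of the pooled isthmus. BCKDHB had a log2 fold change of 0.51 ± 0.09 and its partner BCKDHA -0.16 ± 0.09, PCCB had 0.42 ± 0.12 and PCCA 0.12 ± 0.09, and ETFB had 0.69 ± 0.11 and ETFA 0.24 ± 0.08. MCCC2 (0.53 ± 0.14) and MCCC1 (0.39 ± 0.08) were both called higher. The difference between subunits was not tested.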
